A study of Mus musculus with 6 samples.

Results

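The MHC class II genes examined here are the 7 genes Cd74, H2-Aa, H2-Ab1, H2-Eb1, H2-DMa, H2-DMb1 and Ciita, taken as all rows of an RNA-seq table that carry these symbols. They are 7 of the 12623 genes of the table and fill 10 of its 17241 transcript rows. The table came from lung endothelial cells (EC) of C57BL/6N mice, with 3 libraries of infant and 3 of young adult EC that the series calls biological replicates. The labels name no transgene and no treatment for either age, they give the ages in words only, and whether a library pooled several animals is not given in the sources used here. According to the study's methods, living cells carrying CD31 and CD34 and lacking the leukocyte antigen PTPRC, the lymphatic antigens LYVE1 and PDPN and the erythroid antigen LY76 were collected by flow cytometry after collagenase digestion, so each library is a bulk sort that can also hold RNA of a few other cells. The study compared both ages to describe how lung EC become quiescent.

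MHC class II molecules present peptides from the endocytic route to CD4+ T cells. An alpha and a beta chain pair in the endoplasmic reticulum around the invariant chain, encoded by Cd74, which blocks the peptide groove and directs the complex to endosomes. There cathepsins trim the invariant chain, and H2-DM, a dimer of the products of H2-DMa and H2-DMb1, exchanges the remaining fragment for peptide. Transcription of these genes is controlled by CIITA, a coactivator that does not bind DNA itself and docks on factors bound at the X and Y boxes of class II promoters. Dendritic cells, B cells and macrophages express class II at all times, and EC can express it after interferon gamma and, in some capillary beds of the lung, without added stimulus. The C57BL/6 strains carry the H2b haplotype, in which H2-Ea makes no product, so the chain encoded by H2-Eb1 lacks its usual partner at the cell surface.

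H2-Aa, H2-Ab1, H2-Eb1, H2-DMa and H2-DMb1 lie together in the MHC on chromosome 17. In RefSeq coordinates on GRCm38.p6 (the mm10 assembly), H2-DMa spans 34119693 to 34139101, H2-DMb1 34153191 to 34160229, H2-Ab1 34263227 to 34269418, H2-Aa 34282744 to 34287823 on the minus strand, and H2-Eb1 34305867 to 34316674. Ciita lies on chromosome 16 from 10480014 to 10531064. RefSeq promoter windows, from 250 bases before to 50 after the annotated start, were at hand for 4 members (H2-Aa, H2-Eb1, H2-DMa and H2-DMb1) and not for Cd74, H2-Ab1 or Ciita. Both strands were searched for an X box core, GNNAC, followed after 22 to 34 bases by the Y box ATTGG. H2-Aa, H2-Eb1 and H2-DMb1 held this arrangement, and neither window of H2-DMa did. These windows of H2-DMa covered 34122582 to 34122881 and 34125268 to 34125567. The rest of its span, up to 34139101, was not searched, so the arrangement may lie elsewhere in that gene. The window of H2-DMb2, a class II locus gene outside the members, did not hold it. The arrangement was not limited to class II genes: the class I genes H2-K1, H2-D1, H2-Q4, H2-Q6 and H2-Q7 held it, and H2-T23 did not. In all, the arrangement was present in 7.32% of the 32851 promoter windows of mouse genes, and ATTGG alone in 37.4% of them.

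The stretches below show the arrangement with the X core and the Y box in capitals, each read on its gene's strand. H2-Ob, a class II locus gene outside the 7 with no called change, is printed for comparison with the members that rose.
H2-Aa, chr17:34287864-34287909, minus strand: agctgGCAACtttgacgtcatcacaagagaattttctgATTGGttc
H2-Eb1, chr17:34305771-34305815, plus strand: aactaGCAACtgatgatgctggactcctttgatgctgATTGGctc
H2-DMb1, chr17:34153092-34153137, plus strand: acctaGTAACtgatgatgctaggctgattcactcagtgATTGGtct
H2-Ob, chr17:34238813-34238855, plus strand: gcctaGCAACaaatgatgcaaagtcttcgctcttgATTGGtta
The X core and the Y box were separated by 28 bases in H2-Aa, 27 in H2-Eb1, 28 in H2-DMb1 and 25 in H2-Ob. The X core began 81 bases before the annotated start in H2-Aa, 91 in H2-Eb1, 94 in H2-DMb1 and 87 in H2-Ob. H2-Eb1 had another match on the opposite strand of its window. A match of letters is a description and does not show that a factor was bound in these cells.

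**Figure D1:**
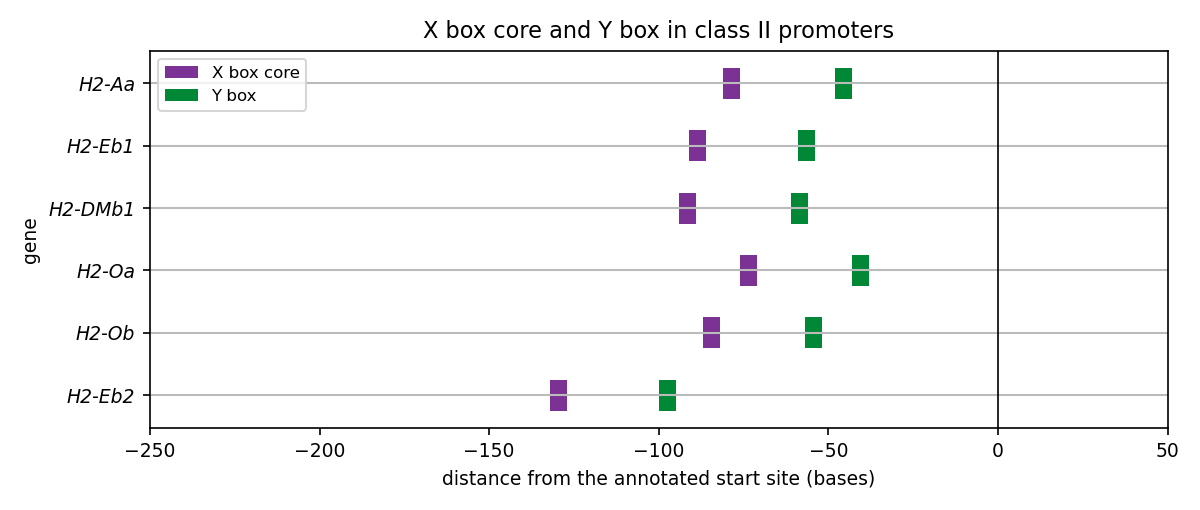
Position of the X box core (purple) and the Y box (green) in the promoter windows of class II locus genes that hold both in the searched arrangement, with bases from the annotated start site on the x axis and 1 gene per line. In H2-Aa, H2-Eb1, H2-DMb1 and H2-Ob the X core began between 81 and 94 bases before the start. In H2-Oa it began 76 bases and in H2-Eb2 132 bases before the start.

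Expression was deposited as RPKM, the reads per kilobase of transcript scaled to the mapped reads of the library and rounded to 1 decimal. Levels can thus be compared between genes, while the read depth behind them is unknown. Between libraries a level also depends on the share taken by other transcripts, such as the globin transcripts given below. The ages were compared with limma on log2(RPKM + 1) across all 12458 genes that reached an RPKM of 1 in a library, and a gene was called when its Benjamini-Hochberg adjusted p was under 0.05 and its change passed 1.75-fold. In this fit 1424 genes were called, 415 of them higher and 1009 lower in young adult EC, with a median log2 fold change of -0.07 over all genes. The libraries differed in ways that touch every gene: globin transcripts took 3.41% to 23.5% of the summed RPKM in the infant sorts against 0.307% to 0.487% in young adult libraries, and the Y-linked transcript Ddx3y was present at 16.5 to 21.9 RPKM in the infant libraries and listed at 0 in all young adult ones, although the study's methods name female mice. The sex of the animals and their age therefore cannot be told apart in any comparison below. All 12 endothelial marker genes were detected in all 6 libraries, which shows that endothelial RNA was present and does not measure the purity of the sorts. Among them Pecam1 (the CD31 antigen) stood at 309.8 to 512.6 RPKM for infant EC and 573.7 to 657.8 in young adult libraries, Cdh5 at 213.8 to 310.1 and 276.4 to 316.9, and Cd34 at 422.7 to 500.6 and 254.4 to 354.8.

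Of the 7 class II genes, 6 rose from infant to young adult EC, and Cd74 alone did not pass the test. The rising genes were the I-A and I-E chain genes (H2-Aa, H2-Ab1 and H2-Eb1), the peptide exchange factor genes (H2-DMa and H2-DMb1) and Ciita. Their young adult means were 3.41 to 7.89 times the infant means. That is 6 of 7 members called higher and 0 lower, where 3.33% of all genes tested were called higher and 8.1% lower. The groups did not overlap in the same 6 genes, which was so for 16.4% of all genes in this direction. The median log2 fold change of the 7 members was 1.81. Against the fold threshold itself, H2-Ab1 was the only one of them called (0.417% of all genes were called higher in this stricter test). Since these are bulk sorts, more positive cells and more RNA per cell in young adult EC cannot be told apart.

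H2-Ab1 (NM_207105) encodes the beta chain of the I-A molecule, the main class II product in this strain. The infant libraries held 11.1, 9.3 and 16.8 RPKM of it, and their young adult counterparts 49.2, 53.7 and 100.2 RPKM. Every young adult library was above every infant library, with young adult replicate 3 standing well above the other two. The log2 fold change was 2.32 ± 0.30 (SE, n = 3 and 3; 95% interval 1.64 to 3.01; limma adjusted p = 0.00285), and H2-Ab1 was the only member called in all 22 alternative analyses.

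H2-Aa (NM_010378) encodes the alpha chain that pairs with it. The infant libraries held 25.1, 22.1 and 34 RPKM, and the young adult libraries 77.5, 60.6 and 138.9. The groups did not overlap, and replicate 3 was the highest library in each. The log2 fold change was 1.67 ± 0.30 (SE, n = 3 and 3; 95% interval 0.98 to 2.35; limma adjusted p = 0.00874).

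H2-Eb1 (NM_010382), the I-E beta chain gene, had the lowest level of the I-A and I-E chain genes. Its levels came to 8.2, 4.9 and 10.9 RPKM at the infant age and 21.8, 16.5 and 47.9 RPKM in young adult EC. The young adult values were again all higher, but they spread widely among themselves. The change of 1.64 ± 0.39 on the log2 scale (SE, n = 3 and 3; 95% interval 0.73 to 2.55) passed the test with a limma adjusted p of 0.0223. This call rests on single libraries, since it was lost without infant replicate 1 (limma adjusted p = 0.0662) and without young adult replicate 1 (limma adjusted p = 0.0623), with changes of 1.68 and 1.76.

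The genes of the peptide exchange factor rose as well. H2-DMa (NM_010386), its alpha chain gene, was at 4.3, 4.3 and 8.2 RPKM in the infant sorts against 17.3, 17.4 and 32.0 RPKM in young adult libraries. H2-DMb1 (NM_010387), its beta chain gene, was at 3.6, 4.3 and 5.4 RPKM for infant EC and 20.6, 13.7 and 32.2 RPKM in young adult libraries. Neither gene overlapped between the ages, and in both the highest library of each age was replicate 3. The log2 fold change was 1.81 ± 0.29 for H2-DMa (SE, n = 3 and 3; 95% interval 1.14 to 2.48; limma adjusted p = 0.00608). For H2-DMb1 it was 2.03 ± 0.28 (SE, n = 3 and 3; 95% interval 1.39 to 2.67; limma adjusted p = 0.0035). H2-DMb1 has a near-identical neighbour, H2-DMb2, with which it can share reads, so the split between these copies is uncertain. H2-DMb2 itself measured 2.8, 2.1 and 6.3 RPKM at the infant age and 4.9, 4.5 and 8.2 RPKM in young adult EC and overlapped between the ages (log2 fold change 0.60, limma adjusted p = 0.21).

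Ciita, the coactivator gene, had the lowest level and the largest ratio of means, 7.89. It stood at 0.6, 0.5 and 0.8 RPKM in infant libraries, close to the 0.1 RPKM steps of the table, and at 4.7, 3.1 and 7.2 RPKM in young adult libraries. All young adult values were several times any infant value. The log2 fold change on the log2(RPKM + 1) scale, which compresses low values, was 1.82 ± 0.24 (SE, n = 3 and 3; 95% interval 1.27 to 2.38; limma adjusted p = 0.00312). With 0.1 in place of 1 added before the logarithm it was 2.74 and called. With 5 added it was 0.8079, barely over the log2 fold threshold of 0.8074, so that call sits at the cut-off. The other transcript rows of Ciita, NM_001243760 and NM_007575, changed by 1.75 and 1.78 beside the row used here, NM_001243761. The annotated exons of this transcript share bases with Dexi, and the library kit does not mark strand, so reads there cannot be assigned. Dexi measured 0.5, 0.5 and 0.8 RPKM in the infant sorts against 1.1, 0.7 and 1.2 RPKM in young adult libraries.

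Cd74, the invariant chain gene, lies apart from the MHC on chromosome 18, from 60803849 to 60812652. It was the most abundant of the 7 in every library. The infant libraries held 178.2, 147.4 and 286.9 RPKM and the young adult libraries 145.2, 144.3 and 408.5 RPKM. The young adult libraries were both the lowest and the highest of the 6, so the groups overlapped. The log2 fold change was 0.06 ± 0.43 (SE, n = 3 and 3; 95% interval -0.93 to 1.05; limma adjusted p = 0.929), an interval that includes a change of the fold threshold in either direction. The sign rested on single libraries: the change was -0.44 without young adult replicate 3 (limma adjusted p = 0.313), -0.14 without infant replicate 2 and -0.0072 without infant replicate 1. The other transcript row of Cd74, NM_001042605, ran at 0.889 to 0.905 of the row used, NM_010545, in all libraries and changed by 0.07. Cd74 was called in 0 of the 22 alternative analyses.

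**Figure D2:**
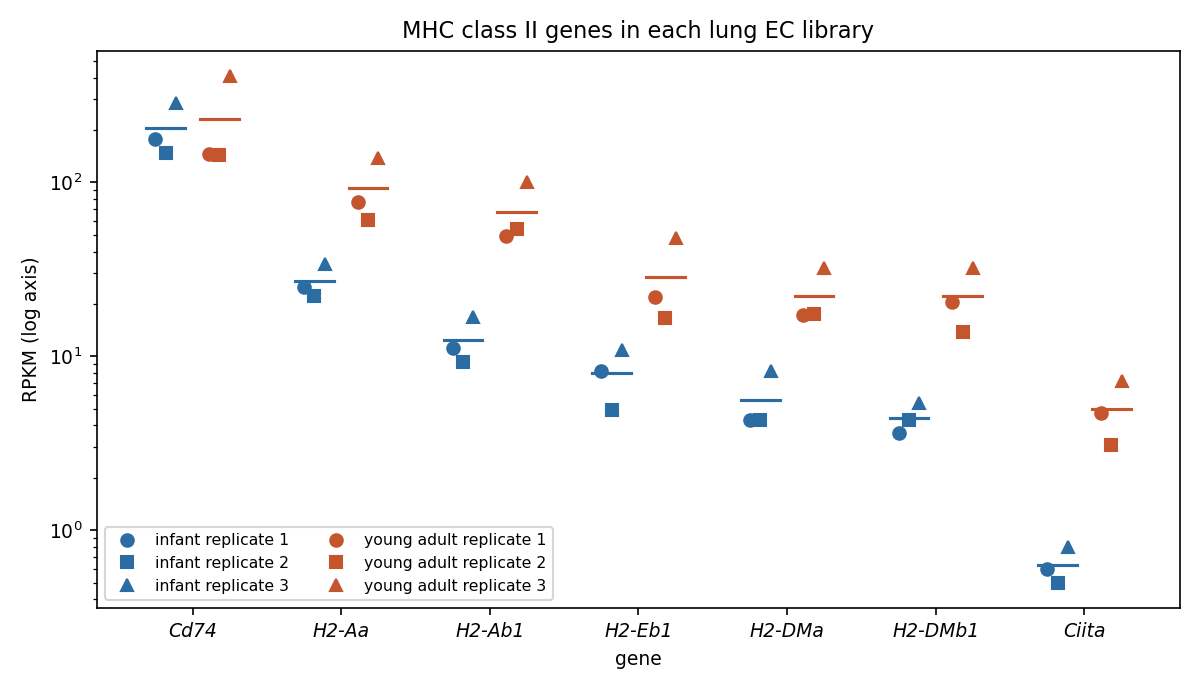
RPKM on a log axis of the 7 class II genes in each library, with infant in blue, young adult in red, a symbol for each replicate and a bar at each group mean. In 6 genes all young adult points lie above all infant points, while the points of Cd74 run from 147.4 to 286.9 in infant and from 144.3 to 408.5 in young adult EC.

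The mean levels followed the same order at both ages, from Cd74 through H2-Aa, H2-Ab1, H2-Eb1, H2-DMa and H2-DMb1 to Ciita. Within libraries, H2-Aa was above H2-Ab1 and H2-Ab1 above H2-Eb1 in 6 of 6. H2-Eb1 (means 8.0 ± 3.0 and 28.7 ± 16.8 RPKM in infant and young adult EC, SD, n = 3) was above H2-DMa (5.6 ± 2.3 and 22.2 ± 8.5) in 5 of 6 libraries. H2-DMa was above H2-DMb1 (4.43 ± 0.91 and 22.2 ± 9.3) in 3 libraries and equal to it in 1, so these neighbours had no fixed order. Cd74 made up 77.1%, 76.5% and 79.0% of the summed RPKM of the 7 genes in infant libraries and 43.2%, 46.7% and 53.3% in young adult libraries, with no overlap.

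Ratios between genes of the same library do not move with its scaling. Cd74 was 4.92, 4.69 and 5.65 times the sum of H2-Aa and H2-Ab1 in infant libraries and 1.15, 1.26 and 1.71 times in young adult libraries. All infant ratios were above all young adult ratios. On the log2 scale the mean ratio went from 2.34 ± 0.14 to 0.44 ± 0.30 (SD, n = 3), so that the ages differed by -1.91 (two-sided exact permutation p = 0.1, adjusted over 5 ratios 0.167). With 3 libraries against 3 this p of 0.1 is the smallest the test can give, so no ratio could reach 0.05.

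The proportions of the chain genes were compared in the same way, with the same limit on p. The ratio of H2-Aa to H2-Ab1 was 2.26, 2.38 and 2.02 in infant and 1.58, 1.13 and 1.39 in young adult libraries, without overlap (log2 difference -0.71, exact two-sided permutation p = 0.1, adjusted 0.167). H2-Eb1 was 0.739, 0.527 and 0.649 of H2-Ab1 in infant and 0.443, 0.307 and 0.478 in young adult libraries, again without overlap (log2 difference -0.65, exact two-sided permutation p = 0.1, adjusted 0.167). Neither passed the test. The log2 ratio of H2-DMa to H2-DMb1 went from 0.29 ± 0.30 at the infant age to 0.03 ± 0.30 (SD, n = 3), with overlapping libraries and an exact two-sided permutation p of 0.4. H2-Ab1 set against B2m, the light chain of class I molecules, had log2 ratios of -5.88 ± 0.94 and -5.44 ± 0.36 (SD, n = 3), which overlapped (0.43 apart, two-sided exact permutation p = 0.6) and took the opposite sign without infant replicate 2 (-0.10).

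**Figure D3:**
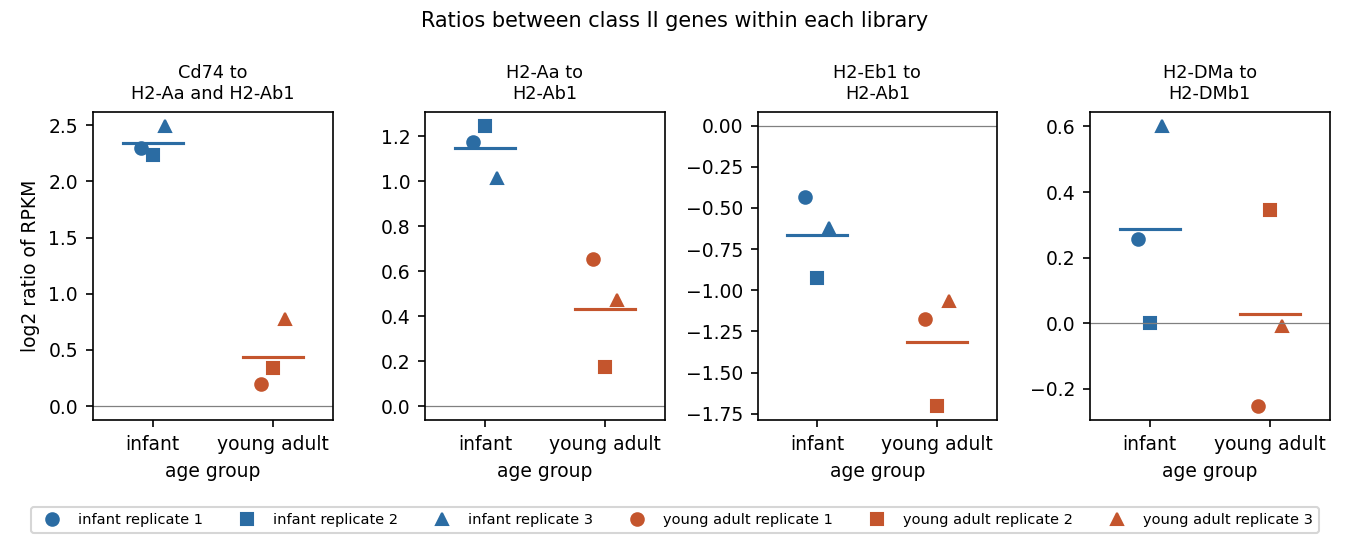
Log2 ratios of RPKM between class II genes in each library, in 4 panels with their own y axes, infant in blue, young adult in red, bars at the group means and a grey line at equal levels where it falls in the panel. The first 3 ratios do not overlap between the ages, and the ratio of H2-DMa to H2-DMb1 does.

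Replicate 3 was the highest library of its age for all 7 genes. Young adult replicate 3 exceeded the mean of the other young adult libraries by 1.84-fold (H2-DMa) to 2.82-fold (Cd74) in all 7 genes. Among all genes tested the median log2 difference of this library was 0.06, and 0.674% of genes (84) stood at least 1 log2 unit above the mean of the other two. Infant replicate 3 exceeded the mean of the other infant libraries by 1.37-fold (H2-DMb1) to 1.91-fold (H2-DMa), again in all 7, beside a median log2 difference of 0.01 over all genes. Without young adult replicate 3 the 6 called genes stayed called, with log2 fold changes from 1.21 (H2-Eb1) to 2.01 (H2-Ab1).

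Cells that express class II constitutively could reach a sort in small numbers, so their markers were summed in each library. The 9 pan-leukocyte markers added up to 50.1, 54.8 and 104.9 RPKM for infant EC and 6.3, 25.4 and 46.0 RPKM in young adult libraries. Ptprc, the antigen used to deplete leukocytes, measured 4.2, 3.0 and 7.0 RPKM at the infant age and 0.2, 1.0 and 1.8 RPKM in young adult libraries. These markers thus stood lower in young adult EC, where class II transcripts were higher. Over all genes tested, 8.1% were called lower and 3.33% higher, which is the background for this list and those below. Of the 9 pan-leukocyte markers, 4 were called lower and 0 higher (Ptprc, Cd53, Cd52 and Rac2, log2 fold changes from -1.54 to -1.27), and the median was -1.27. The count moved from 0 to 9 over the alternative analyses and was 0 when infant replicate 1 or 3, or young adult replicate 1 or 2, was left out.

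B cell markers were likewise lower in young adult EC. The sum of 5 genes was 21.5, 19.2 and 59.8 RPKM in the infant sorts against 1.8, 8.6 and 7.1 RPKM in young adult libraries, and 4 of them, among these Cd79b, Cd79a and Ms4a1, were called lower and 0 higher, with a median of -1.83, although the count was 0 without young adult replicate 1, 1 without young adult replicate 2, and 2 when infant replicate 1 or 3 or young adult replicate 3 was left out. Cd79b, a signalling chain of the B cell receptor, measured 9.5, 7.7 and 22.4 RPKM for infant EC and 0.6, 3.5 and 3.2 RPKM in young adult EC. Infant replicate 3 was the infant library with the most B cell transcripts and also with the highest level of each of the 7 class II genes.

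Of 10 dendritic cell markers, 4 could be used, and Flt3, Xcr1, Cd209a, Batf3, Siglech and Clec10a were not analysed here. The 4 summed to 27.0, 32.0 and 24.9 RPKM at the infant age and 21.2, 19.5 and 19.9 RPKM in young adult libraries, mostly from Clec9a and Zbtb46. The remaining pair, Itgax and Ccr7, was set apart after their values were seen, so it was not a test. It added up to 2.7, 2.2 and 4.1 RPKM in infant libraries and 0.3, 0.6 and 2.0 RPKM in young adult ones. These sums did not overlap, as was so for 43.4% of all genes tested in either direction, while Itgax alone overlapped. Ccr7 was called lower and 0 genes higher (median -0.51), but this call was kept in only 1 of 6 fits that left out a library, the one without infant replicate 2. Itgax, the CD11c integrin of dendritic cells and alveolar macrophages, stood at 1.2, 1.2 and 1.0 RPKM in the infant sorts against 0.1, 0.2 and 1.3 RPKM in young adult libraries.

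The 8 macrophage and monocyte markers summed to 356.7, 619.7 and 421.0 RPKM for infant EC and 389.1, 552.5 and 857.5 RPKM in young adult libraries, and overlapped. Lyz2 and Ly6c2 carried most of this sum. The other 6 markers were set apart after their values were seen. They added up to 18.6, 18.3 and 20.3 RPKM in infant libraries and 6.0, 10.4 and 16.7 RPKM in young adult ones. These sums did not overlap, as was so for 43.4% of all genes tested in either direction. Taken singly, Csf1r, Cd68 and Mrc1 did not overlap, while Marco, C1qb and Cd14 did, and none of them was called. Because the choice followed the values, it was not a test. Ly6c2 was called higher (log2 fold change 1.70) and 0 lower, and the median was -0.40. Csf1r, the macrophage growth factor receptor gene, measured 1.5, 1.1 and 1.6 RPKM at the infant age and 0.3, 0.7 and 0.8 RPKM in young adult EC. Marco, an alveolar macrophage receptor gene, was listed at 0 in young adult replicate 1, the single marker value at 0.

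Alveolar type 2 cells also carry class II molecules. Their 9 markers added up to 4041.1, 5102.0 and 4891.4 RPKM in the infant sorts against 1579.4, 3080.3 and 5289.7 RPKM in young adult libraries, mainly from the surfactant gene Sftpc (3733.9, 4683.1 and 4583.0 against 1450.9, 2826.7 and 4883.1 RPKM). Etv5 alone was called lower and 0 markers higher, where 8.1% and 3.33% of all genes tested were, and the median was -0.66. Etv5 lost its call in 4 of 6 fits that left out a library, and the count called lower ran from 0 to 4 over the alternatives. Within the young adult group these sums followed the class II levels in part. Replicate 3 was highest in pan-leukocyte, macrophage and alveolar type 2 markers and in all 7 class II genes, while replicates 1 and 2 differed from 6.3 to 25.4 RPKM in pan-leukocyte markers and from 1579.4 to 3080.3 RPKM in alveolar type 2 markers at sums of H2-Aa, H2-Ab1 and H2-Eb1 of 148.5 and 130.8 RPKM. Of the class II genes, Cd74 showed the strongest excess of replicate 3. The part of these cells in the class II levels was not tested.

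**Figure D4:**
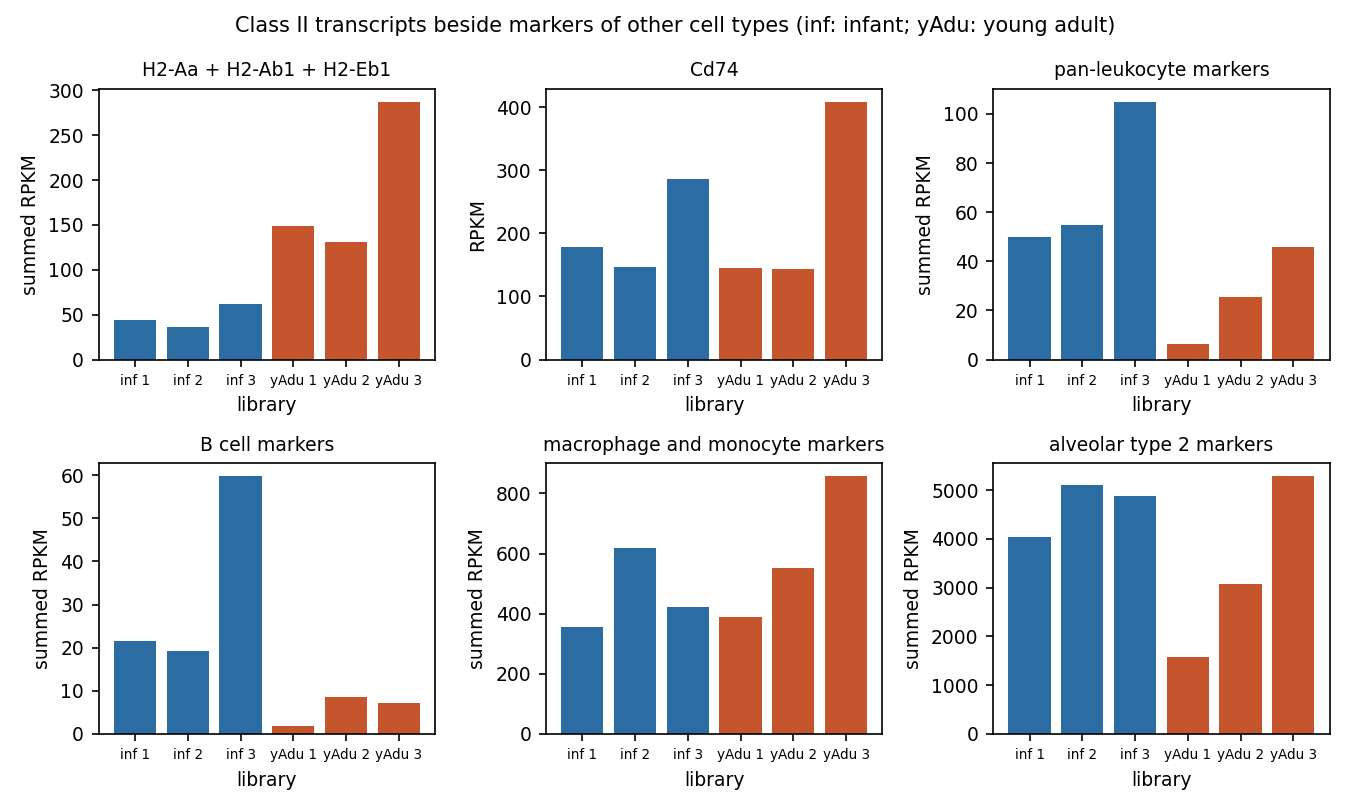
Bars from 0 of the summed RPKM of H2-Aa, H2-Ab1 and H2-Eb1, the RPKM of Cd74 and the summed RPKM of the marker lists in each library (infant in blue, young adult in red). The summed chain genes run from 130.8 to 287.0 in young adult and from 36.3 to 61.7 in infant libraries. Pan-leukocyte markers run from 6.3 to 46.0 in young adult and from 50.1 to 104.9 in infant libraries.

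Markers of further cell types differed between the ages as well. The fibroblast markers summed to 1108.3, 237.2 and 694.5 RPKM for infant EC and 7.1, 17.5 and 16.3 RPKM in young adult libraries, and 7 of 8 were called lower (median -3.60, with Col3a1, Col1a1, Col1a2 and Pdgfra at the front) and 0 higher. Without young adult replicate 1 this count was 4, and Pdgfra kept its call in 1 of 6 fits that left out a library. All 4 globin genes were called lower (median -4.72). Of 12 endothelial markers, Vwf (2.03) and Tek (1.25) were called higher and 0 lower, with a median of 0.30. The number called higher was 5 without infant replicate 2, and quantile normalization and scaling to endothelial markers each called 1 lower. Of 4 lymphatic markers Lyve1 was called higher (1.65) with a median of -0.29, while Prox1 was not analysed here. Lyve1 lost its call without young adult replicate 1 or 2 (limma adjusted p = 0.0584 in each). When all libraries were scaled to the endothelial markers instead of the deposited total, the 6 genes stayed called, with log2 fold changes from 1.43 (H2-Eb1) to 2.11 (H2-Ab1), and Cd74 stood at -0.15, where the median of all genes moved to -0.25.

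The class II promoter is occupied by the RFX complex on the X box and NF-Y on the Y box, and CIITA itself is induced by interferon gamma, with IRF1 among the factors that act on its promoter. Of 18 genes of these factors and of the interferon gamma axis analysed here, 2 were called higher and 0 lower. Over all genes tested these shares were 3.33% and 8.1%. The median of the 18 genes, 0.01, was near that of all genes. Irf1, 1 of the called genes, measured 85.0, 113.6 and 80.5 RPKM at the infant age and 204.7, 153.9 and 214.4 RPKM in young adult EC (a log2 change of 1.03 ± 0.18, SE, n = 3 and 3; limma adjusted p = 0.00864). Its groups did not overlap. Rfx5, the DNA-binding subunit of the RFX complex, measured 1.8, 1.4 and 1.9 RPKM in the infant sorts against 1.4, 1.2 and 1.7 RPKM in young adult libraries and was not called (log2 fold change -0.15, limma adjusted p = 0.452). The partners Rfxap and Rfxank stood at 0.01 each, the NF-Y subunit genes Nfya, Nfyb and Nfyc between -0.12 and 0.08, and the receptor chain gene Ifngr1 at 0.23 (limma adjusted p = 0.161), none of them called.

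Over all genes tested, 3.33% were called higher and 8.1% lower. Of the 14 genes of endolysosomal processing analysed here, none was called higher and 2 were called lower, with a median of -0.09. The called genes were Cd63, a tetraspanin of late endosomes (log2 fold change -1.90, limma adjusted p = 0.0101), and Cd44, which forms a receptor complex with the invariant chain for the cytokine MIF (-1.24, limma adjusted p = 0.0269, lost in 5 of 6 fits that left out a library). Ctss, the cathepsin that trims the invariant chain in professional antigen-presenting cells, measured 17.7, 15.9 and 20.3 RPKM for infant EC and 2.3, 7.8 and 15.4 RPKM in young adult libraries. All its young adult values were lower than the infant values, but their spread was wide and the change of -1.27 ± 0.50 (SE, n = 3 and 3) did not pass (limma adjusted p = 0.0963). This change was -0.65 without young adult replicate 1, and it was called without young adult replicate 3 (-1.81, limma adjusted p = 0.0295) and with scaling to endothelial markers (-1.48, limma adjusted p = 0.0229), with adjusted p from 0.0229 to 1 over the alternatives. Of the other cathepsin genes none was called, with log2 fold changes of 0.48 for Ctsd (limma adjusted p = 0.0339), -0.49 for Ctsf (limma adjusted p = 0.0272), -0.44 for Ctsh, -0.11 for Ctsl and -0.02 for Ctsb, those of Ctsd and Ctsf under the fold threshold.

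Among 8 genes of costimulation and T cell contact analysed here, 3 were called higher and 1 lower, with a median of 0.75. Shares over all genes tested were 3.33% and 8.1%. Vcam1, an adhesion receptor for lymphocytes, rose from 3.7, 4.3 and 2.5 RPKM to 21.5, 18.9 and 14.5 RPKM (log2 fold change 2.10, limma adjusted p = 0.000998). Cd274, which encodes the inhibitory ligand PD-L1, rose from 3.2, 5.8 and 2.8 RPKM to 12.1, 9.2 and 16.3 RPKM (1.47, limma adjusted p = 0.00847). Lgals9 (0.86, limma adjusted p = 0.0179) and Tnfsf9 (-1.03, limma adjusted p = 0.0194) were called in opposite directions, and each lost its call in most of the fits that left out a library. Cd80 and Cd86, the classical costimulatory ligands of professional antigen-presenting cells, were not analysed here.

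Of the other class II locus genes, H2-DMb2 and H2-Ob could be used, and neither was called. H2-Ob, the beta chain gene of the H2-DM inhibitor H2-O, measured 1.0, 1.2 and 2.4 RPKM at the infant age and 1.0, 1.2 and 1.2 RPKM in young adult EC (a log2 change of -0.21, limma adjusted p = 0.484). H2-O is mainly a product of B cells and some dendritic cells. Class I presentation genes serve the loading of peptides from the cytosol. Of these 14 genes, 13 were called higher and 0 lower, with a median of 1.96, against 3.33% and 8.1% of all genes tested. Their own coactivator Nlrc5, a relative of Ciita, measured 0.6, 2.5 and 0.8 RPKM in the infant sorts against 9.1, 7.7 and 13.9 RPKM in young adult EC (a log2 change of 2.34, limma adjusted p = 0.00339), and B2m 474.7, 1152.6 and 643.2 against 2796.6, 2248.8 and 3460.1 RPKM (1.98, limma adjusted p = 0.00847). H2-Q6 (4.15), H2-Q7 (4.01) and H2-K1 (2.57) had the largest changes of that list, though H2-Q6 and H2-Q7 are near-identical copies. In contrast to the class II genes, the highest infant library for Nlrc5 and B2m was replicate 2 and not replicate 3.

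**Figure D5:**
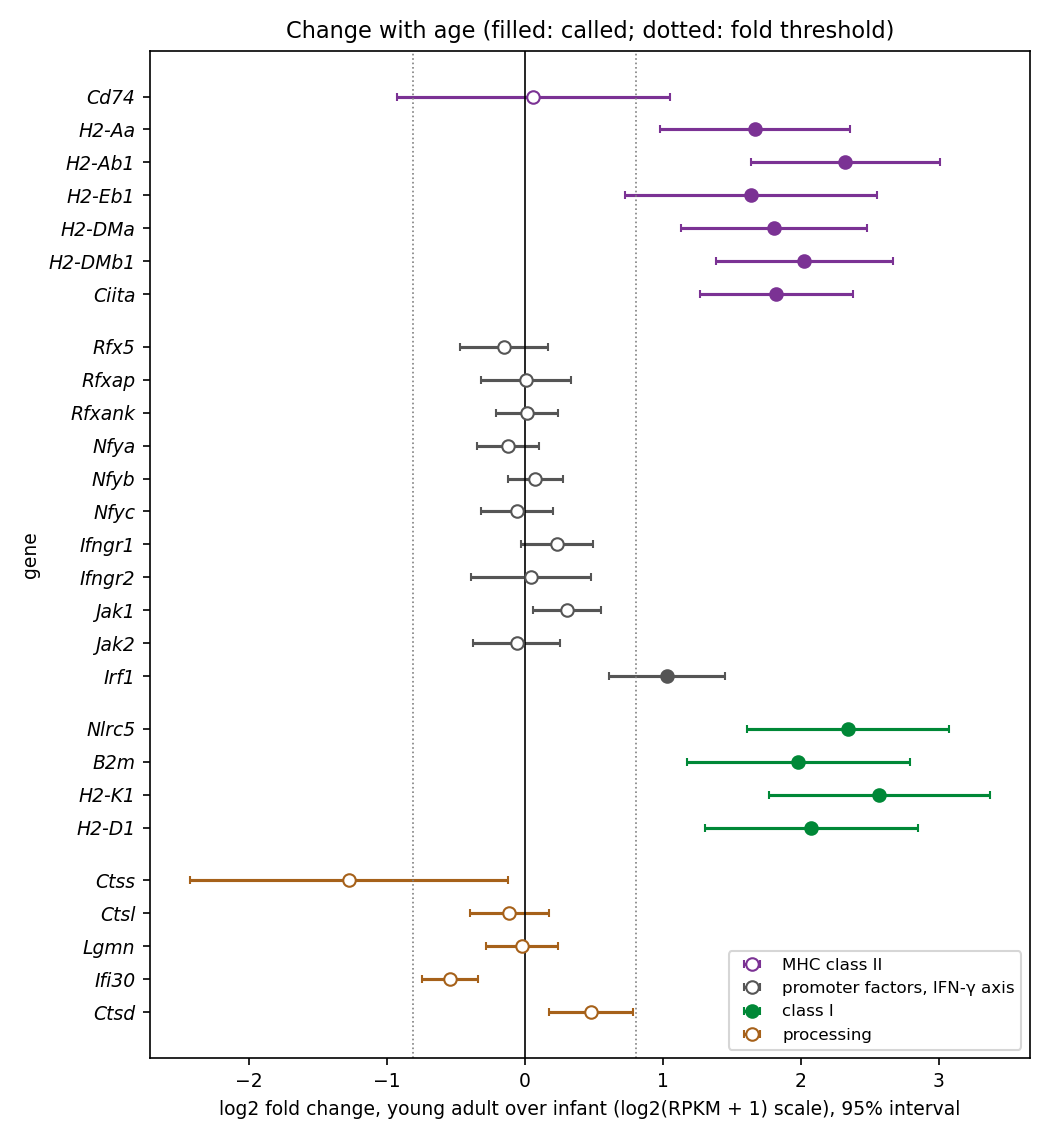
Log2 fold change of young adult over infant EC on the log2(RPKM + 1) scale with its 95% interval from limma, for the class II genes and selected genes of the lists (filled symbols are called, dotted lines mark the fold threshold). The 6 called class II genes lie between 1.64 and 2.32, Cd74 lies at 0.06, and the RFX and NF-Y genes lie between -0.15 and 0.08.

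Patterns over the 6 libraries were compared by the root mean square difference between a gene's centred log2(RPKM + 1) profile and the mean centred profile of Cd74, H2-Aa, H2-Ab1 and H2-Eb1, among 6978 genes whose mean RPKM reached 5. The nearest genes outside the 7 were Gbp8 (distance 0.354), Gbp4 (0.388), Gstp2 (0.417), Neurl3 (0.434), Gm3934 (0.435), Gstp1 (0.443), Casp12 (0.451) and Dusp8 (0.454), where the median of all ranked genes was 0.852. By the same measure H2-DMa lay at 0.251, H2-DMb1 at 0.384 and Ciita, whose mean RPKM did not reach 5, at 0.311. The genes used to build the profile lay at 0.159 (H2-Eb1), 0.163 (H2-Aa), 0.465 (H2-Ab1) and 0.691 (Cd74). Gbp8, a guanylate-binding protein gene, measured 2.3, 2.0 and 2.0 RPKM for infant EC and 8.4, 7.4 and 12.4 RPKM in young adult libraries, with replicate 3 the highest young adult library, as in the class II genes. The order depended on infant replicate 2, the only library left out in this comparison. Without it the ranks were 3 for Neurl3, 20 for Gbp4, 23 for Dusp8, 27 for Gbp8, 109 for Gstp2, 149 for Casp12, 160 for Gm3934 and 175 for Gstp1. Gstp1, Gstp2 and Gm3934 are so alike in sequence that their reads may be split between them.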

How the data were processed

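RNA-seq of sorted lung EC was analysed in 3 infant and 3 young adult libraries, grouped and numbered by their titles. Per the labels and the study's methods, RNA from a PicoPure kit was amplified with the SMARTer Ultra Low kit, sequenced as paired ends on a HiSeq2000, aligned to mm10 with STAR and tested with DESeq2. Versions and the program that computed RPKM are not given in the sources used here. The deposited table held RPKM values made by the authors, 1 row per RefSeq transcript and 1 column per library, and 0 other columns of values. Date-like symbols (24 rows, 11 genes) were replaced by the symbol of their accession.

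The row with the highest mean RPKM stood for a gene. Since whole reads could not be recovered from values with 1 decimal, no count test was run, and limma 3.58.1 in R 4.3.3 (lmFit and eBayes with intensity trend) was applied to log2(RPKM + 1), with Benjamini-Hochberg adjustment over 12458 genes. Calls required an adjusted p under 0.05 and a change over 1.75-fold. Ratios were compared by exact two-sided permutation tests (scipy 1.17.1). On simulated data with 200 genes changed by 1.5 log2 units, 91.5% were recovered with 4 false calls. Each simulated gene varied independently around its own mean with its own SD, and the changed genes were drawn from those above a minimum mean level. Shifts shared by many genes of a library were not simulated, so these rates do not carry over to the real libraries. The series calls the replicates independent without naming animals, so p-values measure the spread between these libraries, which may be partly technical. Read depth is unknown, so no counting interval was computed.

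The genes, lists and tests were chosen with earlier results of these data known. Named were the 7 genes, the called genes of each list (at most the 4 with the largest change), a set of fixed reference genes and the 8 nearest patterns. Nfya, Nfyb, Nfyc, Rfxap, Rfxank, Ifngr1, Ctsl, Ctsb, Ctsd, Ctsf, Ctsh, Clec9a, Zbtb46, Lyz2, Marco, H2-Ob, H2-DMb2, Dexi, Ddx3y and the further genes in the plot of changes were named beyond this rule after their values were seen. The same holds for Cd68, Mrc1, C1qb, Cd14, H2-D1, H2-Q4 and H2-T23, while H2-Oa and H2-Eb2 were named for their promoter windows only. Promoter sequences and coordinates came from RefSeq (GRCm38.p6), and no protein sequences were used. Alternatives changed the added constant, the filter, the scaling, the variance model, the thresholds, the transcript row, the replicate block and the libraries. Some genes of the lists are not reported here by name.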

Additional observations from a re-analysis of the deposited data

How the results depend on the processing

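All 6 called class II genes kept their direction under each of the 22 alternatives, and Cd74 was called under none. Only H2-Ab1 remained called when limma tested against the fold threshold itself, so that 1 of 7 members was called (limma adjusted p = 0.0425, with 0.417% of all genes called higher). In that test H2-Aa (1.67, limma adjusted p = 0.288), H2-Eb1 (1.64, 0.693), H2-DMa (1.81, 0.163), H2-DMb1 (2.03, 0.0692) and Ciita (1.82, 0.0749) kept their log2 fold changes and lost their calls. H2-Eb1 (1.64) also missed a limma adjusted p under 0.01, and its change ran from 1.21 to 1.95 when single libraries were left out. Cd74 changed sign with quantile normalization (-0.065), a total without globin genes (-0.045), scaling to endothelial markers (-0.15) and array weights (-0.21), and ran from -0.44 to 0.33 without single libraries. The log2 ratio of H2-Ab1 to B2m ran from -0.10 to 0.74 without single libraries. Rfx5 (0.14) and Sftpc (0.0912) turned positive under quantile normalization. The cause of these shifts was not tested.

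Against 1424 calls over all genes, 578 were made with 5 added before the logarithm, 716 at an adjusted p under 0.01, 176 against the fold threshold and 842 to 1874 without single libraries. Of the calls, 29.1% were higher in young adult EC, but 46.5% under quantile normalization, where the median of all genes was 0.04 instead of -0.07, 41.5% with 5 added, and 16.6% after scaling to endothelial markers, where it was -0.25. Over all genes the replicate numbers did not pair the libraries (correlations of deviations 0.03, -0.11 and -0.02), and with the replicate block 6 members and 1371 genes were called. The members, whose highest library was replicate 3 at both ages, all had a smaller SE with the block. It went from 0.43 to 0.18 for Cd74, from 0.30 to 0.12 for H2-Ab1 and from 0.24 to 0.18 for Ciita. Class I presentation genes fell from 13 calls to 5 against the fold threshold. The unknown depth limits what can be said of Ciita and of markers near 0.1 RPKM.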
